A study of Homo sapiens with 6 samples.

Results

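The 10 genes described here encode transcription factors of the AP-1, MYC, EGR and ATF kinds and a survival regulator, several of which cells switch on within minutes of a growth or stress signal. They are FOS, FOSL1 and FOSL2 of the Fos family, JUN, JUNB and JUND of the Jun family, EGR1, ATF3, MYC and IER3. They were taken by symbol from a deposited expression table, where each has 1 row, and they make up 10 of its 57150 genes. By its labels the table comes from K562 cells, a human leukemia line, in which 3 pools were transfected with siRNAs that target both αCP1 and αCP2 (group KD) and 3 pools with control siRNAs (group CTRL). All pools were harvested 72 h after transfection. The control siRNAs were not all non-targeting, since some were directed at the unrelated mRNA GLD-2. The αCP proteins, encoded by PCBP1 and PCBP2, bind cytosine-rich RNA, and the experiment was made to follow the splicing of cassette exons after their depletion.

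Each gene has 1 FPKM, which is the number of sequenced fragments scaled by transcript length and library size, and 1 estimated count, in a column labelled KD, and the same in a column labelled CTRL. The libraries of a group are not separated, so the spread between replicates is unknown, no test was run and no p-value is given. Estimated counts totalled 13699340 in the KD-labelled column and 11680567 in the CTRL-labelled column. Both totals lie below the mapped read pairs that the study lists for each single library. Whether the estimated counts were rescaled is not stated, and the intervals below treat them as counted fragments. The targeted mRNAs did not follow the labels. PCBP1 had an FPKM of 184.1 in the KD-labelled column and 187.8 in the CTRL-labelled column, 0.98-fold, and PCBP2 had 530.8 and 342.4, 1.55-fold. PCBP1 was thus nearly level and PCBP2 was higher, and every direction below is one between labelled columns. The study describes its own checks of depletion, of mRNA and of protein, which are not restated here. Of 19 erythroid and hematopoietic markers, 11 were listed at an FPKM of 0 in both columns, GATA1 and TAL1 among them, and the summed FPKM of the list was 169.7 and 45.4. HBE1, an embryonic globin gene, gave most of that sum. The 11 epithelial markers summed to 4472 and 3242, led by KRT18 with 2309 and 1748, and the 10 mesenchymal markers summed to 716.0 and 567.3, led by VIM. In these 2 lists too some markers were low: 4 epithelial and 4 mesenchymal markers had an FPKM under 1 in both columns. KRT19, ESRP1, COL1A2 and LUM among them were at 0. In the erythroid and hematopoietic list 13 were under 1 in both. Most of the defining markers of the labelled cell type were thus at 0, and whether the columns hold the labelled pools cannot be told from the table. Whether these markers have a part in the values below was not tested. Among 16 genes that every cell uses, the median log2 ratio was -0.06, 1 (TFRC) was higher by 1 or more, and none was listed at 0.

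Fos and Jun proteins are basic leucine zipper factors. They pair with each other to form AP-1, which binds DNA at TGACTCA, while pairs with ATF factors favour the related site TGACGTCA. FOS, EGR1 and IER3 are classical immediate early genes: signalling through the MAPK cascade activates factors already bound at their promoters, no new protein is needed, and the mRNAs decay again quickly, in part through AU-rich stretches in their 3′ UTRs. MYC pairs with MAX and drives genes of ribosome production and growth, and in leukemia lines it is expressed steadily.

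The control elements named above can be read in the sequences of the genes. RefSeq promoters (GRCh38.p14, from 250 bases before to 50 after each start site) were matched for 7 of the 10 genes, with 2 start sites for ATF3. FOSL1, MYC and IER3 were not matched in the promoter table used here. Both strands were searched for the AP-1 site TGACTCA, for the ATF site TGACGTCA, for the E-box CACGTG, for the TATA element TATAAA, and for the CArG box, the site of serum response factor. Positions are counted from the start site. Sites outside this window were not searched, so a gene without a match here can still hold the site elsewhere. The 250 bases before the start are shown for EGR1 because it held the only CArG boxes found in the window among the 7 genes. They are shown for FOS because its fold between the columns was the highest and it has a TATA element near its start. JUND is shown because its log2 ratio was the highest of the 10 and it held TGACGTCA. Capitals mark the motif matches, and each run is given 5′ to 3′ on the strand of the gene.

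EGR1, chr5:138465229-138465478, plus strand: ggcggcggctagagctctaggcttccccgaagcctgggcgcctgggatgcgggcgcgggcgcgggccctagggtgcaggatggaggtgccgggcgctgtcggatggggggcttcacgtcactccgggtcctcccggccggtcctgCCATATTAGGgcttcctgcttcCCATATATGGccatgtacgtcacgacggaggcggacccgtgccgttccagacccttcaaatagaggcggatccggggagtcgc
FOS, chr14:75278578-75278827, plus strand: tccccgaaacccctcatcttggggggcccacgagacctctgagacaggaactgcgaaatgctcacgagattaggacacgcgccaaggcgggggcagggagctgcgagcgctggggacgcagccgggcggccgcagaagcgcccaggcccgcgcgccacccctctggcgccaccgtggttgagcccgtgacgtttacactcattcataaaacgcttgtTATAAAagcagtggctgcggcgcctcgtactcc
JUND, chr19:18281623-18281872, minus strand: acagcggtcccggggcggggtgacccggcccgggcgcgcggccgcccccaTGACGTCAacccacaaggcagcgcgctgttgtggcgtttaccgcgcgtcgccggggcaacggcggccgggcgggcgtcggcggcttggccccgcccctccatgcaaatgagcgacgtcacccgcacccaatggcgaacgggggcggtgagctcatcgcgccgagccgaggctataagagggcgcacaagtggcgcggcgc

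The EGR1 promoter held CArG boxes that begin at positions -105 and -83, whereas 1.29% of the 35116 RefSeq promoters hold one. TATAAA began at -33 in FOS and at -31 in JUNB, and was also found for ATF3, farther from the start at -230, against 11.5% of all promoters. TGACGTCA began at -200 in JUND, against 1.85% of all promoters. The only TGACTCA lay in FOSL2, at position 5, against 4.95%. CACGTG was in none of the 7, against 7.26%. These matches describe the letters in the window and do not show that a factor was bound.

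At the other end of the mRNA, the longest annotated 3′ UTR of each of the 10 genes held the pentamer ATTTA at least once, from 1 in FOSL1, JUND and EGR1 to 9 in FOSL2. This pentamer was in 74.5% of the 11062 3′ UTRs of genes averaging an FPKM of 1 or more. Per kilobase of 3′ UTR, IER3 had 6.64 and FOS 6.20, the highest of the 10, against 2.23 over those 11062. FOSL2, whose 3′ UTR has 4869 bases, had 1.85 per kilobase. The longer element TTATTTATT, which contains the pentamer, was found in FOS and FOSL2, 2 of the 10, against 9.75%. These sites are shown, with the element in capitals, because FOS and FOSL2 share the element while their ratios, given below, lay apart. Whether AU-rich elements have a part in the ratios was not tested. The C-rich consensus that the study describes beside αCP-dependent exons, searched here after the expression values were seen, was present in the 3′ UTRs of 6 of the 10 genes, with 10 matches in FOSL2, and in 57.2% of the 11062.

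FOS 3′ UTR, GRCh37 chr14:75748763-75748791, plus strand: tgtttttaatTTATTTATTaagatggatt
FOSL2 3′ UTR, GRCh37 chr2:28639222-28639250, plus strand: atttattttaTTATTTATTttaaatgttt

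The question that the table allows is how the 10 mRNAs compare between the columns. JUND, FOS, JUN, JUNB, ATF3 and EGR1 had a higher FPKM in the KD-labelled column, by 1.88-fold to 3.96-fold. IER3 was lower there, and MYC, FOSL1 and FOSL2 lay within 0.2 of 0 as log2 ratios. Ratios here are log2 of (FPKM + 1) in the KD-labelled column over that in the CTRL-labelled column, so that ratios of weakly expressed genes come out smaller. Wherever a pair of FPKM values is given below, the KD-labelled column comes first. In RNA from bulk cells, fewer cells that make an mRNA and less of it in each cell cannot be told apart.

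**Figure D1:**
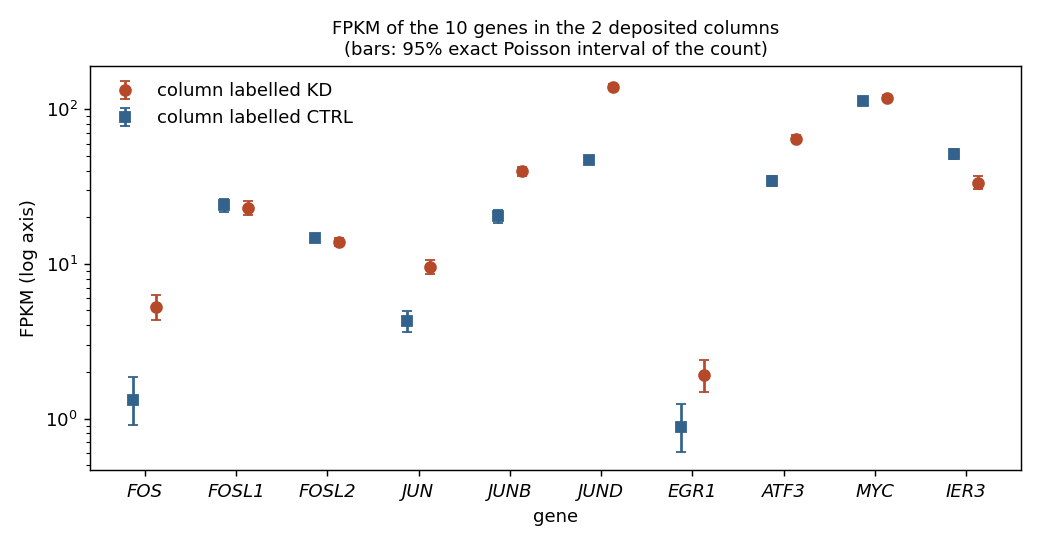
FPKM of each of the 10 genes on a log axis in the KD-labelled column (circles) and the CTRL-labelled column (squares), with 95% exact Poisson intervals of the counts as bars. EGR1 is the lowest gene in both columns, at 1.90 and 0.884, and JUND has the highest point, 139.5, in the KD-labelled column.

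FPKM is scaled by transcript length, so the 10 levels can be set in order. In the KD-labelled column the order was JUND, MYC, ATF3, JUNB, IER3, FOSL1, FOSL2, JUN, FOS and EGR1. In the CTRL-labelled column it was MYC, IER3, JUND, ATF3, FOSL1, JUNB, FOSL2, JUN, FOS and EGR1. The 95% exact Poisson intervals are given in brackets below. They cover counting error only, and do so only if the estimated counts were not rescaled. These intervals were separate for all 9 neighbouring pairs in the first order. In the second they overlapped for 3 pairs, IER3 with JUND, FOSL1 with JUNB, and FOS with EGR1. Whether any neighbours differ beyond the spread between libraries cannot be told from these values. For JUND, FPKM and counts gave different ratios between the columns, as set out below, and the intervals do not cover that difference. Its first place in the KD-labelled column is thus a reading of FPKM alone. The lower end of the order, JUN, FOS and EGR1, was shared by both columns.

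FOS (chromosome 14, 75745529 to 75748933 in hg19, 4 exons) encodes the founding Fos protein, whose mRNA is among the fastest to appear after stimulation. Its FPKM was 5.25 (4.34 to 6.29) from 117 counts in the KD-labelled column and 1.33 (0.913 to 1.86) from 33 counts in the CTRL-labelled column. This was 3.96-fold, the highest fold of the 10 genes, on a low level. The log2 ratio was 1.43 with the pseudocount and 1.98 without it.

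FOSL1 (chromosome 11, 65659520 to 65668044) encodes FRA1, a more stable Fos protein that accumulates later and is typical of adherent and invasive cells. Its FPKM was 23.0 (20.8 to 25.4) in the KD-labelled column and 23.9 (21.6 to 26.4) in the CTRL-labelled column, a log2 ratio of -0.05. FOSL2 (chromosome 2, 28615315 to 28640184) encodes FRA2 and had an FPKM of 13.8 (12.97 to 14.69) and 14.7 (13.8 to 15.6), a log2 ratio of -0.08. The intervals of the columns overlapped for both genes, unlike those of FOS. The FOSL2 row shares its locus entry with 2 other genes. Summed over the 3 Fos genes, FPKM was 42.1 and 39.9. FOS supplied 12.5% of this sum in the KD-labelled column and 3.32% in the CTRL-labelled column, and FOSL1 was the largest part of it in both, with 54.7% and 59.9%.

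The Jun genes were each higher in the KD-labelled column, and each of the 3 has a single exon. JUN (chromosome 1, 59242517 to 59249720) encodes c-Jun, the usual partner of Fos and a target of the JNK kinases. Its FPKM was 9.55 (8.61 to 10.6) from 379 counts and 4.26 (3.64 to 4.96) from 169 counts, 2.24-fold, a log2 ratio of 1.003 that lies on the threshold used below. JUNB (chromosome 19, 12902300 to 12904129) encodes a Jun protein that can oppose c-Jun on growth genes. Its FPKM was 39.7 (37.02 to 42.52) and 20.3 (18.4 to 22.3), 1.96-fold, a log2 ratio of 0.94. In the deposited table its row shares a locus entry, 12873816 to 12985765, with 10 other genes, and its exons overlap HOOK2 on the opposite strand, which had an FPKM of 6.65 and 7.08. Whether the counting used strand is not given in the sources used here.

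JUND (chromosome 19, 18390504 to 18392432) encodes the Jun protein that resting cells also make. Its FPKM was 139.5 (133.6 to 145.5) from 2148 counts in the KD-labelled column and 46.8 (43.96 to 49.83) from 994 counts in the CTRL-labelled column. That was 2.98-fold, with a log2 ratio of 1.55, at percentile 97.2 of the 13741 genes averaging an FPKM of 1 or more. The counts gave less. Their log2 ratio was 1.11, which lies 0.46 below the log2 ratio of 1.57 that FPKM gives without a pseudocount. Among the 11786 genes with 30 or more counts in both columns, 2.77% had FPKM above counts by as much or more, and the median absolute difference was 0.055. For JUN and JUNB the difference was within 0.004. The value of JUND thus depends on which of the deposited measures is read. Summed over the 3 Jun genes, FPKM was 188.7 and 71.4, and JUND supplied 73.9% and 65.6% of it.

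EGR1 (chromosome 5, 137801168 to 137804992) encodes a zinc finger factor that answers the ERK branch of the MAPK cascade, and its CArG boxes are shown above. It was the least expressed of the 10, with an FPKM of 1.90 (1.48 to 2.40) from 71 counts in the KD-labelled column and 0.884 (0.609 to 1.24) from 33 counts in the CTRL-labelled column. The fold was 2.15, but the pseudocount is large against this level and the log2 ratio was 0.62. EGR1 was thus weakly expressed in both columns, while the Poisson intervals did not overlap.

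ATF3 (chromosome 1, 212738676 to 212794119) encodes a stress-induced zipper factor that pairs with Jun proteins. Its FPKM was 64.4 (61.0 to 68.0) from 1343 counts and 34.2 (31.8 to 36.8) from 723 counts, 1.88-fold, a log2 ratio of 0.89. Only JUND and MYC stood above it in the KD-labelled column. IER3 (chromosome 6, 30710976 to 30712325) encodes a short-lived protein that modifies survival and ERK signalling, and it went the other way. Its FPKM was 33.5 (30.5 to 36.8) from 449 counts in the KD-labelled column and 51.6 (47.9 to 55.6) from 692 counts in the CTRL-labelled column, 1.54-fold higher in the latter, a log2 ratio of -0.61. IER3 has the densest ATTTA of the 10 genes and FOS the next, and their ratios had opposite signs. mRNA decay was not measured, and any part of the pentamer in these ratios was not tested. HCG20, whose exons overlap IER3 on the opposite strand, was listed at 0.160 and 0.242.

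MYC (chromosome 8, 128747680 to 128755197) was abundant in both columns, with an FPKM of 119.0 (114.9 to 123.3) from 3072 counts in the KD-labelled column and 112.4 (108.3 to 116.6) from 2878 counts in the CTRL-labelled column. It lay at percentile 91.7 and 92.6 of the levels of the 13741 genes. The log2 ratio was 0.08 and the intervals overlapped. Removal of a trend or a change of scale moved it to between -0.14 and 0.20.

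Taking a log2 ratio of 1 or more as the mark of a difference, 3 of the 10 genes passed it in the KD-labelled column, namely JUND, FOS and JUN, and 0 passed it in the other direction. Of all 13741 genes averaging an FPKM of 1 or more, 8.51% were higher by this mark and 3.27% lower. The median of the 10 was 0.76 against 0.01 for all genes, whose quartiles were -0.34 and 0.45. The ratios of 7 of the 10 lay above 0 and those of 3 below. No test stands behind these counts.

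**Figure D2:**
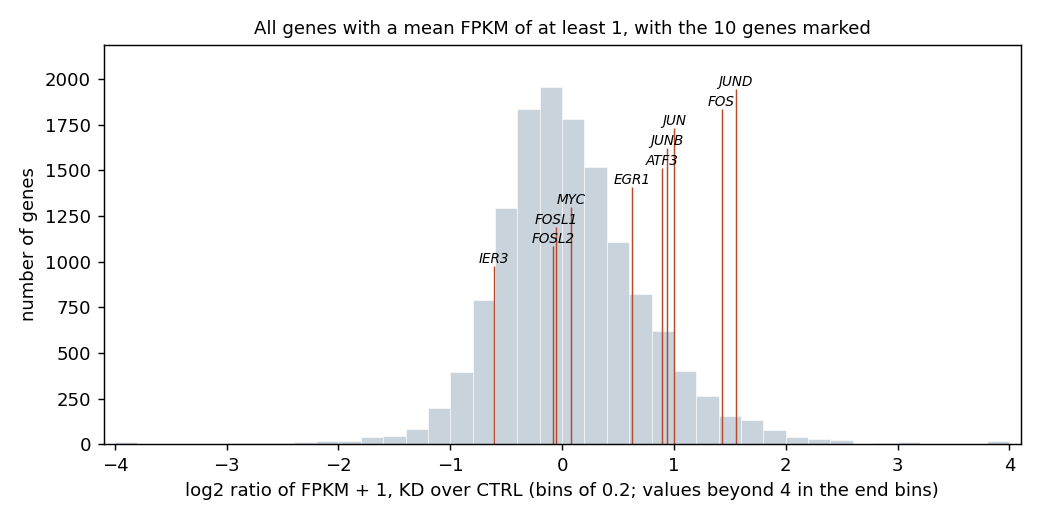
Number of genes by log2 ratio, KD over CTRL, in bins of 0.2 for the 13741 genes averaging an FPKM of 1 or more, with a line at the ratio of each of the 10 genes. JUND, FOS and JUN stand at or beyond 1, IER3 lies at -0.61, and MYC, FOSL1 and FOSL2 sit near the centre.

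The scale matters for these counts. When counts were taken as shares of their column's total, the median of all genes moved to -0.21, 6.69% of genes were higher by 1 or more and 9.65% lower, so that 40.9% of the genes past the mark were higher against 72.2% with FPKM. On that scale 1 of the 10 genes, FOS, passed the mark. The log2 ratio of count shares, with its 95% exact binomial interval, was 1.60 (1.028 to 2.1998) for FOS, 0.94 (0.67 to 1.21) for JUN, 0.88 (0.77 to 0.99) for JUND and 0.88 (0.26 to 1.52) for EGR1. It was 0.74 (0.57 to 0.92) for JUNB and 0.66 (0.53 to 0.80) for ATF3. The intervals of these 6 genes lay above 0 and those of the other 4 below, namely FOSL1 with -0.24 (-0.44 to -0.03), FOSL2 with -0.31 (-0.43 to -0.18), MYC with -0.14 (-0.21 to -0.06) and IER3 with -0.85 (-1.03 to -0.68). On this scale 0 marks equal shares of the column totals and not the median gene, which lay at -0.21. Relative to the median of all genes on the same scale, 4 of the 10 were higher by 1 or more, against 10.3% of all genes higher and 5.76% lower. They were FOS with 1.77, JUN with 1.14, JUND with 1.09 and EGR1 with 1.06. JUNB was at 0.95, ATF3 at 0.87, MYC at 0.07, FOSL1 at -0.03, FOSL2 at -0.10 and IER3 at -0.65. With FPKM and a pseudocount of 0.1, 4 of the 10 were higher by 1 or more, against 11.3% of all genes higher and 5.76% lower. With FPKM ratios centred on the median, 2 were, against 8.27% and 3.44%.

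**Figure D3:**
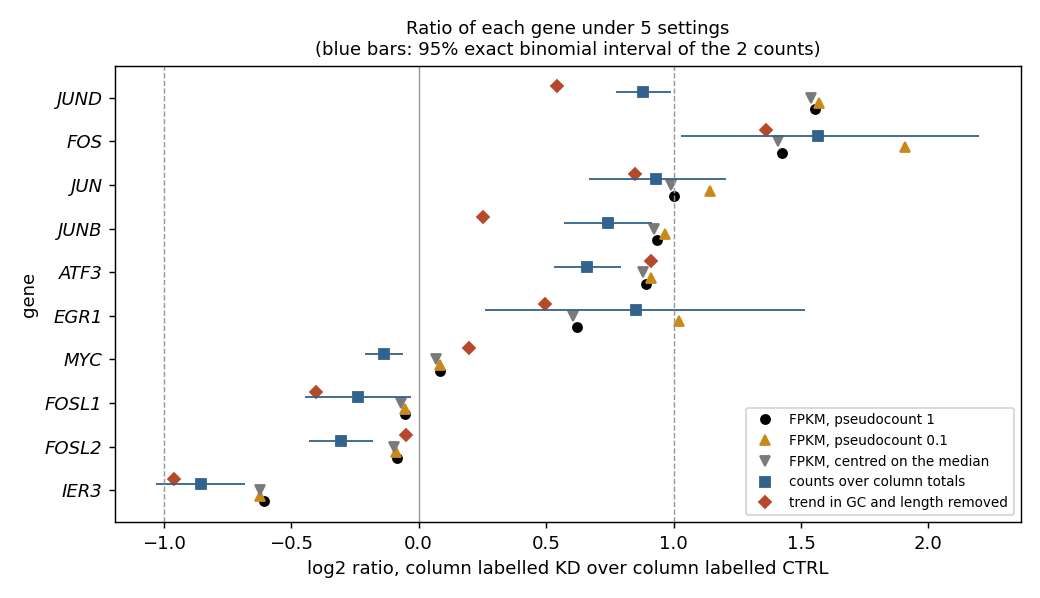
Log2 ratio, KD over CTRL, of each gene under 5 settings, with the 95% exact binomial interval of the 2 counts as a bar. FOS stays between 1.36 and 1.91 and JUND spreads from 0.54 to 1.57, while IER3 lies below 0 in each setting.

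Base composition moved with the ratio in the whole table. Across 13298 genes, which share their libraries and are not independent, the Spearman rho between GC content of the transcript and log2 ratio was 0.459. All 10 genes had a GC content above the median gene, 48.4%, from 48.8% for MYC to 69.9% for JUND. Genes of like composition, within 2 points of GC content, were compared after the values were seen. Among the 102 such genes for JUND, the median log2 ratio was 1.17, so JUND stood 0.38 above genes of like composition. JUNB, with 64.9% GC, stood 0.18 above the 784 genes of like composition. The picture was different for FOS, with 52.8% GC, where 1699 genes of like composition had a median of 0.11 and FOS stood 1.31 above it. ATF3 stood 0.86, JUN 0.76, EGR1 0.43 and MYC 0.11 above, while IER3 stood 0.93 below. The difference was -0.41 for FOSL1 and -0.21 for FOSL2. With a quadratic fit on GC content and log2 length subtracted, the log2 ratio was 1.36 for FOS, 0.91 for ATF3, 0.85 for JUN, 0.54 for JUND, 0.50 for EGR1, 0.25 for JUNB and -0.96 for IER3. FOS alone of the 10 then passed the mark of 1, against 5.58% of the 13298 genes higher by it and 2.98% lower, and the median of the 10 was 0.37. The part that base composition has in the values of JUND and JUNB was not tested further.

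**Figure D4:**
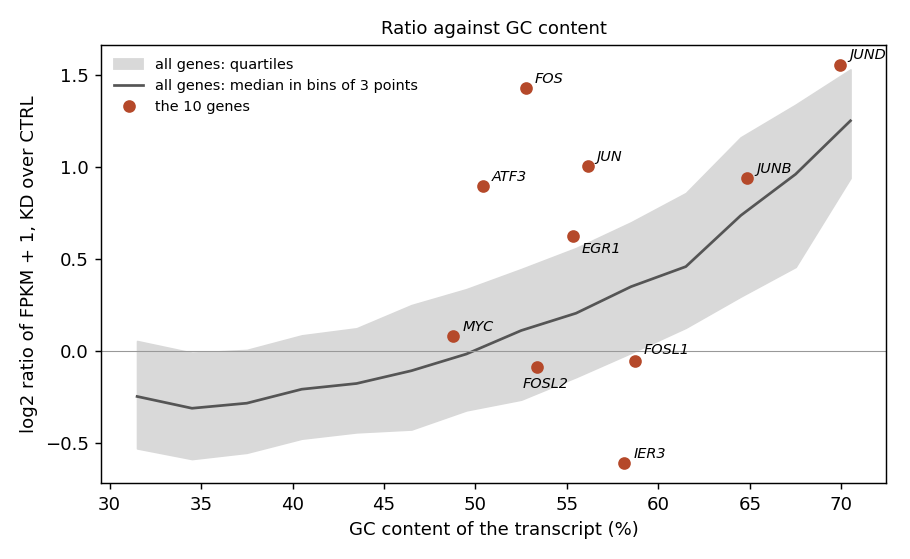
Log2 ratio of FPKM + 1, KD over CTRL, against the GC content of the transcript for the 10 genes (points), with the median (line) and quartiles (band) of all genes in bins of 3 percentage points. JUNB lies inside the band, JUND just above it at 1.55, and FOS, ATF3 and JUN above it at lower GC content. EGR1 lies slightly above the band, FOSL1 slightly below it, and IER3 well below it.

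Related genes were read from lists of the same pathways. Of all genes, 8.51% were higher by 1 or more and 3.27% lower with FPKM, and 5.58% and 2.98% with the GC and length trend removed. A list count near these shares does not set the list apart. Among other immediate early genes, 33 of 37 averaged an FPKM of 1 or more, 7 of these (21.2%) were higher by 1 or more in the KD-labelled column and 0 were lower, with a median log2 ratio of 0.45. They were the 3 orphan nuclear receptor genes NR4A1, NR4A2 and NR4A3, with FPKM of 28.4 and 10.8, 5.80 and 1.83, and 4.88 and 1.22, together with IER5L, CYR61, IER2 and KLF2. NR4A2, NR4A3 and KLF2 were named after their values were seen. CYR61, which encodes a secreted matrix protein, was the most abundant, with 210.9 and 81.3, a log2 ratio of 1.36. IER2 had 42.2 and 18.2, a log2 ratio of 1.17, and IER5L had 16.5 and 3.61, a log2 ratio of 1.92. With the GC and length trend removed 4 of the 33 passed. The close relatives of EGR1 were hardly present, since EGR2 was listed at 0 in both columns and EGR3 and EGR4 had at most 1 count.

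Of the other AP-1 and zipper partners, 17 of 19 could be compared, 3 (17.6%) were higher by 1 or more and 0 lower, with a median of 0.06. JDP2, which encodes a repressor that pairs with Jun, had an FPKM of 18.2 and 4.58, a log2 ratio of 1.78 that was 1.84 with the trend removed. MAFK, which encodes a small Maf protein, had 38.7 and 14.8, and CEBPD had 16.1 and 5.85, each with a log2 ratio of 1.32. BATF3 was at 11.3 and 6.18, a log2 ratio of 0.77. FOSB, the Fos family gene outside the 10, was low in both columns, at 1.396 and 0.768. With the GC and length trend removed, JDP2 alone of the 17 passed.

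**Figure D5:**
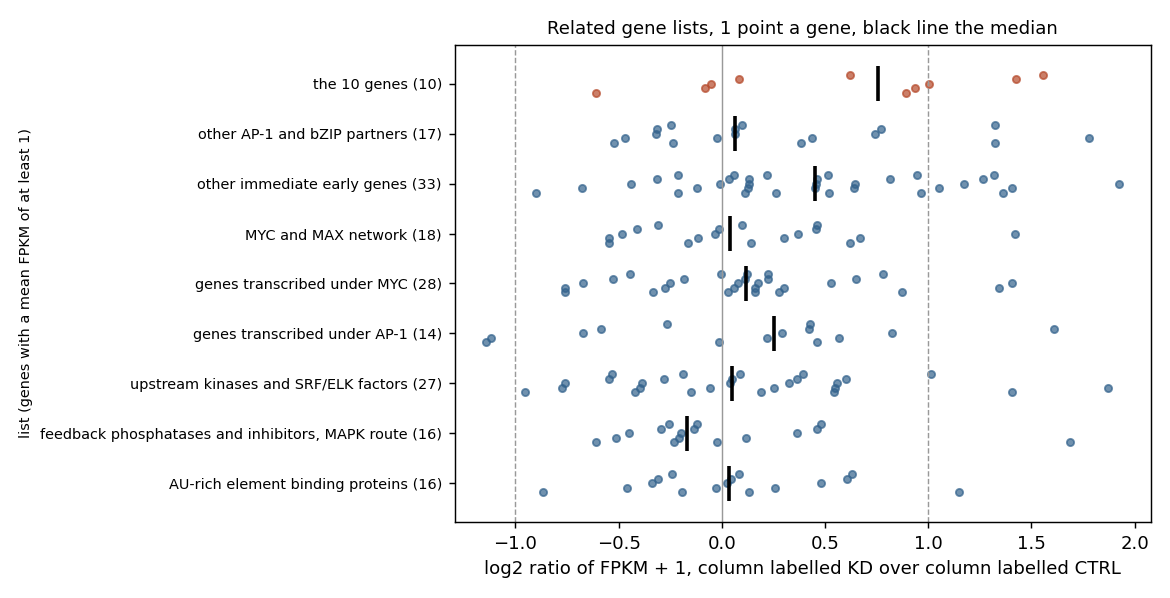
Log2 ratio of FPKM + 1, KD over CTRL, of every gene averaging an FPKM of 1 or more in the 10 genes and 8 related lists, with 1 point a gene and the list median as a black line. The other immediate early genes have a median of 0.45, and the medians of the other related lists lie between -0.17 and 0.25.

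MYC's partners and the genes listed as under its control, whose direction of control was not considered, were read in the same way. In the MYC and MAX network, 1 of 18 genes was higher by 1 or more and 0 were lower, with a median of 0.04. That gene was MXD3, which encodes a MAX partner that opposes MYC, with an FPKM of 13.9 and 4.56, a log2 ratio of 1.42 that was 0.61 with the GC and length trend removed. MNT, another such antagonist, was at 0.67, ZBTB17 at 0.62 and MYCBP2 at -0.55, and MAX itself had 24.8 and 33.3. Of genes transcribed under MYC, 2 of 28 were higher by 1 or more, 0 were lower and the median was 0.12. These were SRM, the spermidine synthase gene, with 306.2 and 120.1, and PPAN, a ribosome assembly gene, with 44.2 and 16.0. RRP9 was at 0.87 and NOLC1 at 0.78, and the share past the mark, 7.14%, was near that of all genes. With the GC and length trend removed SRM was at 0.68 and PPAN at 0.93, so that 0 of the 28 passed.

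Genes known to be transcribed under AP-1 went both ways. Of 26 listed, 14 averaged an FPKM of 1 or more, 1 was higher by 1 or more and 2 were lower, with a median of 0.25. LAMB3, a laminin chain gene, had 57.8 and 18.2, a log2 ratio of 1.61. CCND1, which encodes cyclin D1, had 28.4 and 63.8, a log2 ratio of -1.14, and GCLM, a glutathione synthesis gene, had 3.60 and 8.98, a log2 ratio of -1.12. HMOX1 was at -0.67. With the GC and length trend removed GCLM was at -0.81 and no longer passed, while DCN, which encodes the matrix proteoglycan decorin, went from 0.82 to 1.14 and passed, so that 2 of the 14 were higher and 1 lower. MMP1, MMP3 and MMP10, matrix protease genes often used as AP-1 readouts, were listed at 0 in both columns.

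Upstream of the 10 genes, 27 of 27 genes for kinases and SRF or ELK factors could be compared, and 3 were higher by 1 or more and 0 lower, with a median of 0.05. MAP2K2, the gene of the ERK kinase MEK2, had 190.9 and 51.4, a log2 ratio of 1.87, while ARAF had 59.6 and 21.9, a log2 ratio of 1.41, and HRAS had 149.2 and 73.5, a log2 ratio of 1.01. With the GC and length trend removed, 2 of the 27 passed and HRAS was at 0.29. MAPK8, which encodes the c-Jun kinase JNK1, was at 6.15 and 12.8, a log2 ratio of -0.95. SRF, whose product binds CArG boxes, had 19.4 and 12.4, a log2 ratio of 0.60.

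Of the feedback phosphatases and inhibitors of the MAPK route, which include IER3, 1 of 16 was higher by 1 or more and 0 were lower, with a median of -0.17. DUSP8 was that gene, with 6.78 and 1.42, a log2 ratio of 1.69. DUSP16 was at 0.48, DUSP1, itself an immediate early gene, at 0.46 and ERRFI1 at -0.45. For the proteins that bind AU-rich elements, a list that also holds PCBP1 and PCBP2, 1 of 16 was higher and 0 were lower, with a median of 0.04. AUH had 11.8 and 4.79, a log2 ratio of 1.15, HNRNPD, whose product AUF1 speeds the decay of such mRNAs, had 129.9 and 237.8, a log2 ratio of -0.87, and KHSRP was at 0.61.

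The related lists were also read with counts as shares of the column totals, where the median of all genes is below 0. On that scale 6.69% of all genes were higher by 1 or more and 9.65% lower, and small list counts below lie near these shares. Of the 33 other immediate early genes, 7 were higher by 1 or more on that scale, with ID3 among them and IER2 no longer, and 1 was lower, MCL1. Of the 17 zipper partners, 3 were higher and 1 was lower, CREB1, with a log2 share ratio of -1.11. In the MYC and MAX network 0 of 18 were higher and 2 lower, MYCBP2 and MLXIPL, and of the 28 genes transcribed under MYC 0 were higher and 0 lower. The genes under AP-1 again had 1 higher and 2 lower. Among the 27 upstream genes 1 was higher, MAP2K2, and 2 were lower, ELK3 and MKL2. The feedback list had 1 higher and 0 lower, and the AU-rich binders had 1 higher and 1 lower, TIA1, with a log2 share ratio of -1.05. The genes added here were named after their values were seen.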

How the data were processed

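By the labels, RNA-seq libraries came from 3 K562 pools per group. Whether the deposited columns hold these pools cannot be told from the table. The authors aligned reads to hg19 with TopHat 1.4.1, guided by Ensembl transcripts, and Cuffdiff 2.2.0 gave FPKM, per their methods and processing notes. The deposited table holds 1 FPKM and 1 estimated count per gene and group, and how libraries were combined is not stated. The authors' fold changes, p-values and FDR, which compare the groups, were not used, nor were the repeated averages, minima and maxima. With 1 value per group the linear test across libraries could not be run.

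Log2 ratios of FPKM added a pseudocount of 1 and were taken over genes averaging an FPKM of 1 or more, and a log2 ratio of 1 took the place of a call. Estimated counts were rounded and taken as counted fragments for exact binomial and Poisson intervals. These cover counting error only, and do so only if the counts were not rescaled. Alternatives were a pseudocount of 0.1, no filter, an FPKM over 5 in at least 1 column, centring, counts over column totals, and subtraction of a quadratic fit on GC content and log2 length. Sequences came from GENCODE release 44 lifted to GRCh37, the assembly of hg19, using the Ensembl canonical transcript and the longest 3′ UTR. Promoters came from RefSeq. Leucine zippers were not analysed here. Named genes were the 10, the targeted PCBP1 and PCBP2, up to 4 per pathway list with the largest ratios at a mean FPKM of at least 5, genes of counts of 5 or fewer, and the most abundant markers. A few low or bracketing genes (EGR2, EGR3, EGR4, FOSB, MAX, SRF, MMP1, MMP3, MMP10, and the overlapping HOOK2 and HCG20) were named after their values were seen. The members and lists were chosen with earlier results of these data known. Functions were tested on simulated data. Software was scipy 1.17.1, numpy 2.4.6, matplotlib 3.10.9 and pandas 2.3.3 under Python 3.11.15.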

Additional observations from a re-analysis of the deposited data

How the results depend on the processing

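Of 59 ratios of single genes recomputed under the alternatives, 48 moved by no more than the half-width of their 95% counting interval, 11 moved further, and 0 turned direction after passing the mark of 1. The changes of filter leave each ratio as it was, and centring shifts every ratio by only 0.01, so those settings could not move a ratio. All 11 further moves came with counts over column totals or with the GC and length trend removed. Only the 3 genes past the mark with FPKM could be scored as turned. The number of the 10 genes higher by 1 or more, 3 with FPKM, was 1 with counts divided by column totals and 1 with the GC and length trend removed. The cause was not tested. In both settings the gene was FOS. It was 2 after centring on the median, where JUN stood just under 1, and 4 with a pseudocount of 0.1, which EGR1 then passed. The number lower by 1 or more was 0 in each setting. The median of the 10 ranged from 0.37 with the trend removed to 0.94 with the pseudocount of 0.1. Across settings, FOS ranged from 1.36 to 1.91, JUND from 0.54 to 1.57, JUNB from 0.25 to 0.97 and IER3 from -0.96 to -0.61, and MYC lay on either side of 0, from -0.14 to 0.20. Over all genes, the number lower by 1 or more was 450 with FPKM, 791 with a pseudocount of 0.1, 1326 with counts over column totals and 292 with an FPKM over 5 in at least 1 column, and the number higher was 1169 with FPKM, 1549 with a pseudocount of 0.1, 1136 after centring and 742 with the trend removed. Of 48 medians of the related lists, 1 left the 95% order-statistic interval of its list, that of the feedback genes, at -0.49 with counts over column totals. The trend was removed for 13298 of the 13741 genes.

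No paired analysis was possible because each gene has a single FPKM for each group, and for the same reason no library was left out. The depth limits FOS and EGR1, which have 33 counts each in the CTRL-labelled column. The GC trend, the scale of the columns and the marker levels apply to every ratio above.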
